A study of Mus musculus with 28 samples.

Results

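Dcx, Stmn2, Dpysl3, Tubb2b and Rnd3 are 5 genes for proteins of the growth cone and its microtubules, and they were followed here in sorted amacrine cells of the developing mouse retina. They are 5 of 13617 genes measured under 1 symbol on a mouse exon array. They were picked by name because their levels decline with age in Arc amacrine cells and between P3 and P18 in starburst amacrine cells, where 37.7% and 8.65% of all genes passed a test of change. Those changes are therefore given below as descriptions without a test. What the choice did not use, namely the difference between the cell types at each age and the difference between their changes, was tested.

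The data were 28 arrays of RNA from 200 sorted cells each, 1 retina per sample per the labels. Arc amacrine cells carried EGFP from the transgene of the line Tg(Arc-EGFP)194Gsat/Mmcd and gave 22 arrays, 1 for each postnatal day from P1 to P20, a second for P6, and 1 at P43. These mice were F2 animals of FVB/N-Swiss Webster hybrids, which can carry a recessive mutation for photoreceptor degeneration, bred into C57BL/6J. Starburst amacrine cells carried RFP after Cre recombination in a cross of 129S6-Chat_tm1(cre)Lowl/J with Rosa26-LSL-RFP and gave 3 arrays at P3 and 3 at P18. The labels give the same mixed background for them, although the protocol places the other lines in C57BL/6J. The cells were those that reached the green or red gate of the sorter, so each group stands for the cells in which the Arc transgene or Chat-driven Cre had been active. The batch label reads "A and B" on each Arc array and "B" on each starburst array. Cell type therefore cannot be told apart from batch, mouse line or fluorophore. The series speaks of biological triplicates, and it is not stated whether the value of an Arc day is a mean over such samples.

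A growing neurite ends in a growth cone, in which dynamic microtubules push into an actin-rich rim and are steered by guidance cues. Doublecortin (Dcx) binds and stabilises microtubules in migrating and newly postmitotic neurons, stathmin-2 (Stmn2, SCG10) binds tubulin dimers and promotes microtubule turnover, and Tubb2b is a beta-tubulin of young neurons. Dpysl3 (CRMP4) belongs to the collapsin response mediator proteins, which link semaphorin signals to the cytoskeleton. Rnd3 is a small GTPase that stays bound to GTP and opposes the actin contraction driven by the kinase ROCK1. In the first postnatal weeks amacrine cells extend and stratify their dendrites in the inner plexiform layer and form synapses there, before and around eye opening.

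All levels are RMA values on the log2 scale, so a difference of 1 is a factor of 2. Array medians lay between 3.39 and 3.55 in Arc and between 3.58 and 3.67 in starburst cells. A background level was taken as the 95th percentile of the mean levels of 708 olfactory receptor genes, which was 3.47 in Arc and 3.91 in starburst cells. A level below it was read as not above background, and a difference to such a level as a lower bound. Of 10 amacrine markers measured, none lay below background in the Arc groups, while Gad2 lay below it in starburst cells at both ages and Meis2 at P18. Of 8 starburst markers, Chat, Slc18a3, Slc5a7, Isl1, Sox2, Megf10 and Slc24a4 lay below background in every Arc group, and Megf11 did so from P14 on. At P3 the starburst cells had Slc5a7 and Slc24a4 below background, and at P18 none of the 8. In bulk samples, fewer cells of a type and less RNA per cell cannot be told apart.

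Upstream sequence from RefSeq (GRCm38.p6) was at hand only for Dcx and Rnd3, which is why these 2 are shown. As a description, their Pearson r was 0.909 over 28 arrays, which share age and cell type. That of Dcx and Stmn2 was 0.936. Each line gives the 250 bases before a transcription start, 5′ to 3′ on the gene's own strand, with capitals for matches to the E-box CANNTG, the SOX motif ACAAAG and the TATA motif TATAAA.
Rnd3, chr2:51149112-51149361 (minus strand): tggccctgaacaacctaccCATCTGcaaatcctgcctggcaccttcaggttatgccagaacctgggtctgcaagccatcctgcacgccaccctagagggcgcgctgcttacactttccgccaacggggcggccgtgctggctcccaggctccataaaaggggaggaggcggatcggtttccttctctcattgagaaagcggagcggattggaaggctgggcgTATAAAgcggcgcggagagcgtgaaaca
Dcx, chrX:143933125-143933374 (minus strand): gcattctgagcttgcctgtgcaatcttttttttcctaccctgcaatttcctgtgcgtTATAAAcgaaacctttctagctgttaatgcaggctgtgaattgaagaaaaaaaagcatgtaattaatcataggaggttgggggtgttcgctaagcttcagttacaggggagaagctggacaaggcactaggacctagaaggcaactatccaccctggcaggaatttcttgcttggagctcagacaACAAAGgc
The Rnd3 window held TATAAA at -28 to -23 from the start and an E-box at -231 to -226. A GC box (GGGCGG, left in lower case) lay at -125 to -120. The Dcx window held ACAAAG at -8 to -3 and TATAAA at -193 to -188, and a second annotated Dcx start lies 95 bases upstream, which puts the same TATAAA at -98 to -93. Both strands were searched, also for the CRE core TGACG, which neither gene's windows held. Among 32536 promoter windows of this length, 66.2% held CANNTG, 33.0% GGGCGG, 17.9% TGACG, 16.5% ACAAAG and 12.3% TATAAA. These matches describe letters in the windows and were not tested as binding sites.

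Dcx went to background in both cell types. Its log2 level in Arc cells was 6.28 at P1, 7.68 at P2, 7.83 at P3, 7.77 at P4 and 7.82 at P5, with 7.54 and 7.16 in the pair of P6 arrays. From P7 to P13 the daily values were 6.41, 7.31, 6.39, 5.21, 5.25, 4.74 and 3.90, and from P14 to P20 they were 3.81, 4.09, 3.42, 2.57, 2.71, 2.77 and 2.73. The level thus rested at a plateau from P2 to P5, went down most steeply between P9 and P10 (-1.18), and lay below background on every day from P16. The mean went from 7.76 ± 0.07 at P2 to P4 to 2.68 ± 0.10 at P17 to P19 (SD over 3 neighbouring days each), at least a 19.6-fold difference down to background. At P43 the level was 2.74. In starburst cells the 3 arrays read 6.91, 6.89 and 6.47 at P3 and 2.74, 2.59 and 2.75 at P18, without overlap and with every P18 array below background. That is a log2 difference of -4.06 and at least 7.2-fold down to background.

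Stmn2 stayed up longest of the 5. In Arc cells it read 6.07 at P1, 7.25, 7.57, 7.47 and 7.58 from P2 to P5, and 6.55 and 7.55 in the P6 pair, which differed by 1.00. From P7 to P13 its values were 6.30, 6.23, 6.59, 6.61, 6.33, 6.04 and 5.25, and from P14 to P20 they were 5.05, 5.01, 4.61, 4.64, 3.79, 4.02 and 4.10. After a first step down from P2 to P4 to P7 to P9 (-1.06) the level held still through P10 to P12 (-0.04, with overlapping values) and then went lower to P17 to P19 (-2.18). All Arc values stayed above background, and the P43 array read 4.53, within the range of P17 to P20. In starburst cells the arrays read 6.85, 6.78 and 6.88 at P3 and 3.04, 3.15 and 3.13 at P18. These groups did not overlap, and the P18 arrays lay below background, so that the log2 difference of -3.73 is at least 7.6-fold.

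Dpysl3 had its highest Arc levels from P1 to P5, at 8.29, 8.42, 8.41, 8.58 and 8.56, followed by 7.67 and 8.30 at P6. From P7 to P13 it read 7.41, 7.43, 7.47, 7.19, 6.69, 6.61 and 5.90, and from P14 to P20 6.10, 6.06, 5.16, 4.77, 4.91, 4.66 and 4.45. The course was a long descent from P6 to P20 with rests at P7 to P9 and P13 to P15, and no array reached background. Its P43 level of 4.33 lay below all 4 arrays of P17 to P20. In starburst cells the arrays read 9.64, 9.20 and 9.36 at P3 and 6.65, 6.98 and 6.91 at P18. The groups did not overlap, and the mean difference was -2.55 on the log2 scale (5.9-fold), with the P18 level still well above background.

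Tubb2b had the smallest difference of the 5 and the most uneven course. In Arc cells it read 6.85, 6.68, 6.44, 6.88 and 5.97 from P1 to P5 and 6.99 and 6.45 at P6, and 6.73, 6.48, 6.62, 6.25, 5.54, 5.75 and 5.61 from P7 to P13. From P14 to P20 it read 5.21, 3.47, 5.32, 4.19, 5.28, 5.49 and 4.79, and at P43 4.96. The means of P2 to P4 and P7 to P9 differed by -0.05 with overlapping values, and the array of P15 stood apart below its neighbours, with steps of -1.74 from P14 and 1.85 to P16. In starburst cells the P3 arrays read 7.22, 7.11 and 6.65 and the P18 arrays 5.79, 4.42 and 5.66, a log2 difference of -1.71 without overlap. Tubb2a, its near-identical neighbour, has a transcript cluster of its own on the array, and how probes were shared between these paralogs is not stated, so the values of both are uncertain. In starburst cells Tubb2a was also lower at P18 (log2 change -1.34, adjusted p = 0.00313 in limma), to a level below background, a call that was lost with the spread taken from all 28 arrays (adjusted p = 0.0779 in limma), and in Arc cells its fitted change of 0.46 did not pass the test (adjusted p = 0.499 in limma).

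Rnd3 left its early level first. In Arc cells it read 7.15, 6.73, 6.91, 6.86 and 6.48 from P1 to P5, 6.06 and 5.58 at P6, and 5.17, 5.72, 5.98, 5.22, 4.84, 5.26 and 4.65 from P7 to P13. From P14 to P20 it read 4.29, 5.13, 4.66, 3.65, 3.67, 3.25 and 3.42, and at P43 3.28. Its mean was already lower at P7 to P9 than at P2 to P4 (-1.21), then changed by -0.51 to P10 to P12 with overlapping values, and lay below background from P19 on. In starburst cells the P3 arrays read 4.98, 6.14 and 5.88 and the P18 arrays 3.57, 4.29 and 3.57. The groups did not overlap, replicate 1 of P3 lay apart below the other arrays of its age, and the mean difference of -1.86 is at least 3.4-fold down to background.

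**Figure D1:**
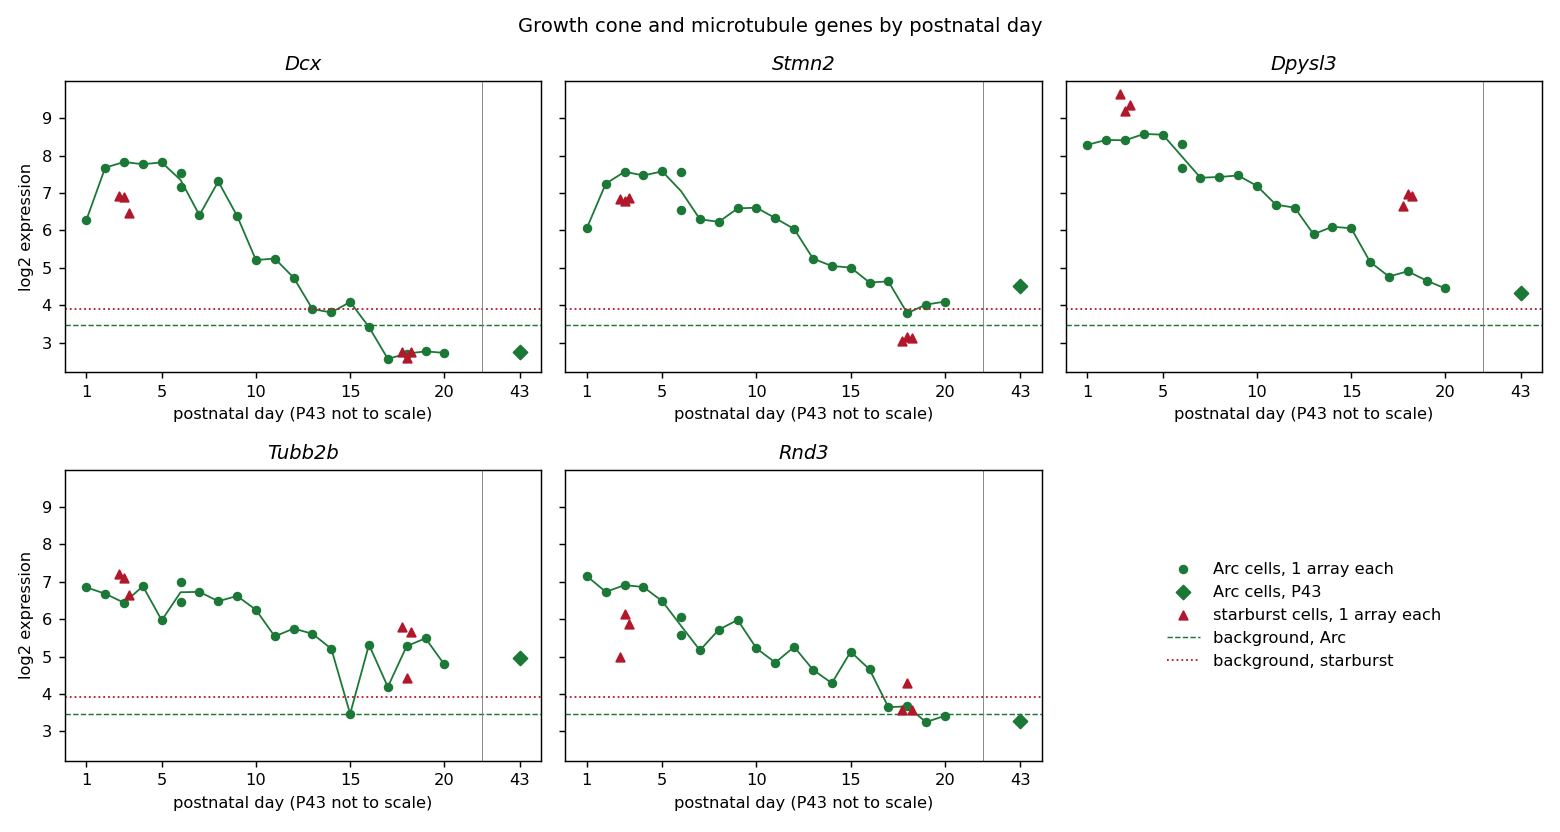
Log2 expression of the 5 genes by postnatal day. Green circles are Arc arrays of P1 to P20 with a line through the daily means, the green diamond is Arc at P43, red triangles are the 3 starburst arrays at P3 and at P18, and dashed and dotted lines are the background levels of 3.47 (Arc) and 3.91 (starburst). Dcx reaches the background level in both cell types, while Dpysl3 in starburst cells still lies between 6.65 and 6.98 at P18.

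The day at which each profile passed the midpoint between its mean at P1 to P3 and its mean at P18 to P20 was read from a running mean over 3 days. It was P10.7 for Rnd3, P10.8 for Tubb2b, P11.2 for Dcx, P11.7 for Dpysl3 and P13.0 for Stmn2. Leaving out 1 array at a time gave 10.4 to 11.4 for Rnd3, 10.4 to 11.7 for Tubb2b, 10.7 to 11.6 for Dcx, 11.4 to 12.1 for Dpysl3 and 12.4 to 13.5 for Stmn2. The first 4 ranges overlap at their neighbours, and Stmn2 was the only one of the 5 whose range lay apart from the others. Without the running mean, Rnd3 passed its midpoint at P12.1, which removes its place at the head of the order.

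The steepness differed more than the midpoint. The span from 25% to 75% of the way down took 3.2 days in Tubb2b, 4.8 in Stmn2, 5.2 in Dcx, 7.5 in Dpysl3 and 10.7 in Rnd3, which had gone 25% of the way by P5.6 and 75% by P16.3. The low Tubb2b values of P15 and P17, below its mean at P18 to P20, came after its 75% point at P12.7 and did not enter its span. The 25% and 75% points of Stmn2 and Dcx are affected by their low P1 arrays (6.07 and 6.28). Their starting means at P1 to P3 were 6.96 and 7.26, against 7.43 and 7.76 at P2 to P4. A higher start would place both points earlier, and spans from another start were not computed. Single arrays crossed the midpoint between P10 and P11 in Tubb2b, P11 and P12 in Dcx, and P12 and P13 in Stmn2 and Dpysl3. None of these genes had an array on the wrong side, whereas Rnd3 first lay below its midpoint at P7 and last above it at P12. The 2 arrays of P6 differed by 0.38 (Dcx), 0.48 (Rnd3), 0.54 (Tubb2b), 0.63 (Dpysl3) and 1.00 (Stmn2), against a standard deviation of 0.32 for that pair's difference over all genes. A step between 2 neighbouring days of that size is therefore within what 2 arrays of the same day showed.

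**Figure D2:**
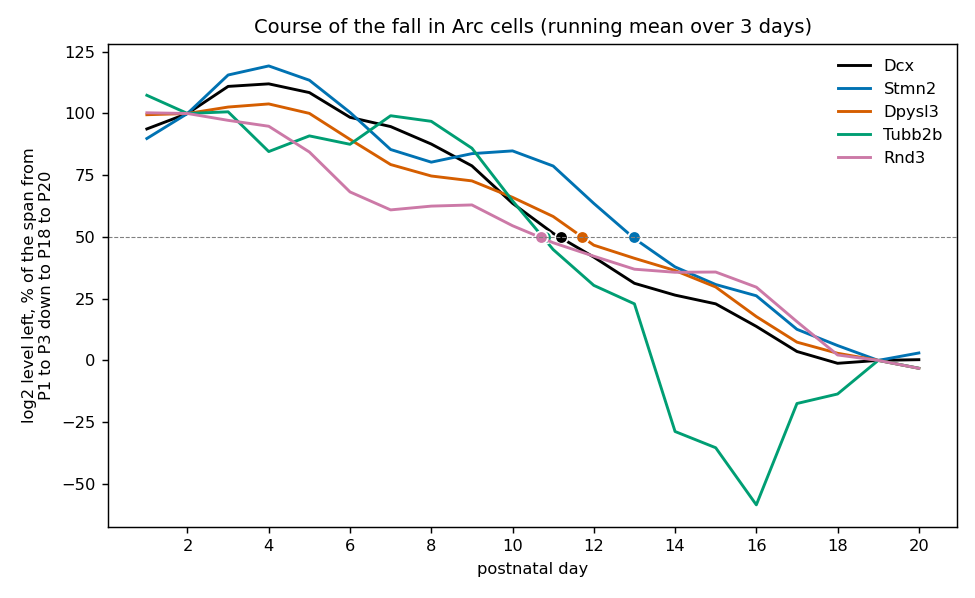
Level left, in % of the log2 span between the mean of P1 to P3 and the mean of P18 to P20, by postnatal day in Arc cells, as a running mean over 3 days (1 line per gene). Dots mark the midpoint, from P10.7 for Rnd3 to P13.0 for Stmn2, and Tubb2b runs below 0 around its low values of P15 and P17.

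Starburst cells at P3 differed from Arc cells of P2 to P4 in 3 of the 5 genes, in both directions. Dpysl3 was higher in starburst cells (9.40 ± 0.22 against 8.47 ± 0.09), while Dcx (6.76 ± 0.25 against 7.76 ± 0.07) and Rnd3 (5.67 ± 0.61 against 6.83 ± 0.09) were lower (SD, n = 3 arrays each). In limma over 12 arrays, with neighbouring Arc days in the place of replicates and adjustment over all genes, the log2 difference was 0.93 ± 0.15 (SE) for Dpysl3, with adjusted p = 0.000963. It was -1.0 ± 0.14 for Dcx (limma, adjusted p = 0.000457) and -1.16 ± 0.27 for Rnd3 (limma, adjusted p = 0.0146). Stmn2 was at -0.60 (95% interval -1.0 to -0.19; limma, adjusted p = 0.058) and Tubb2b at 0.33 (-0.46 to 1.12; limma, adjusted p = 0.603). Beside this count of 3, 10.8% of all genes passed this test, 5.13% with higher and 5.66% with lower levels in starburst cells. The Rnd3 difference at P3 missed the threshold after quantile normalization (limma, adjusted p = 0.0511) and without the Arc array of P4 (limma, adjusted p = 0.0513). The Dcx difference did so when Arc P1 to P5 was used (-0.72; limma, adjusted p = 0.0926), a group that takes in the low P1 value.

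At P18 the cell types differed in 2 of the 5, where 20.7% of all genes passed the test (9.69% higher and 11% lower in starburst cells). Dpysl3 was 4.18-fold higher in starburst cells than in Arc cells of P17 to P19, with means of 6.84 ± 0.18 and 4.78 ± 0.13 (SD, n = 3 each) and a log2 difference of 2.07 ± 0.15 (SE; limma, adjusted p = 3.27e-07). No starburst array of P18 came as low as any Arc array of P17 to P19. Stmn2 was lower in starburst cells (3.11 ± 0.06 against 4.15 ± 0.44), with a fitted difference of -1.05 ± 0.19 (limma, adjusted p = 0.0015). As the starburst level lay below background, only a difference of 1.2-fold or more is measured there. Dcx lay below background in both (2.70 and 2.68), so no fold is given. Rnd3 lay below background in starburst cells (3.81) and near it in Arc cells (3.52), so the fitted difference of 0.29 (limma, adjusted p = 0.468) says little about its size. Tubb2b did not pass (0.30, interval -0.48 to 1.09; limma, adjusted p = 0.575), and this interval leaves room for a difference near 1 on the log2 scale.

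The change from P3 to P18 in starburst cells was then set against the change from P2 to P4 to P17 to P19 in Arc cells. Declines in both cell types entered the choice of the genes, so this test is not independent of it. Dpysl3 changed by -2.55 in starburst and -3.69 in Arc cells, a difference of 1.14 ± 0.21 (SE; 95% interval 0.69 to 1.58; limma, adjusted p = 0.00554), and it passed the test under every alternative that was run. Dcx changed by -4.06 and -5.08, a difference of 1.02 ± 0.20 (limma, adjusted p = 0.0105). Both of its late levels were below background, so its difference of changes is that of the early levels, and it was lost after quantile normalization (0.58; limma, adjusted p = 0.173) and with Arc P1 to P5 and P16 to P20 (0.58; limma, adjusted p = 0.542). Rnd3 changed by -1.86 and -3.31, with a fitted difference of 1.45 (interval 0.62 to 2.28; limma, adjusted p = 0.0547). Its starburst level at P18 lay below background, so the starburst decline is a lower bound and the size of this difference is not measured. The same limit holds for Stmn2, whose fitted difference was -0.45 (interval -1.02 to 0.12; limma, adjusted p = 0.484). Tubb2b did not pass (-0.03; limma, adjusted p = 0.991). Of all genes, 4.02% passed this test, 1.67% with higher and 2.36% with lower values.

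**Figure D3:**
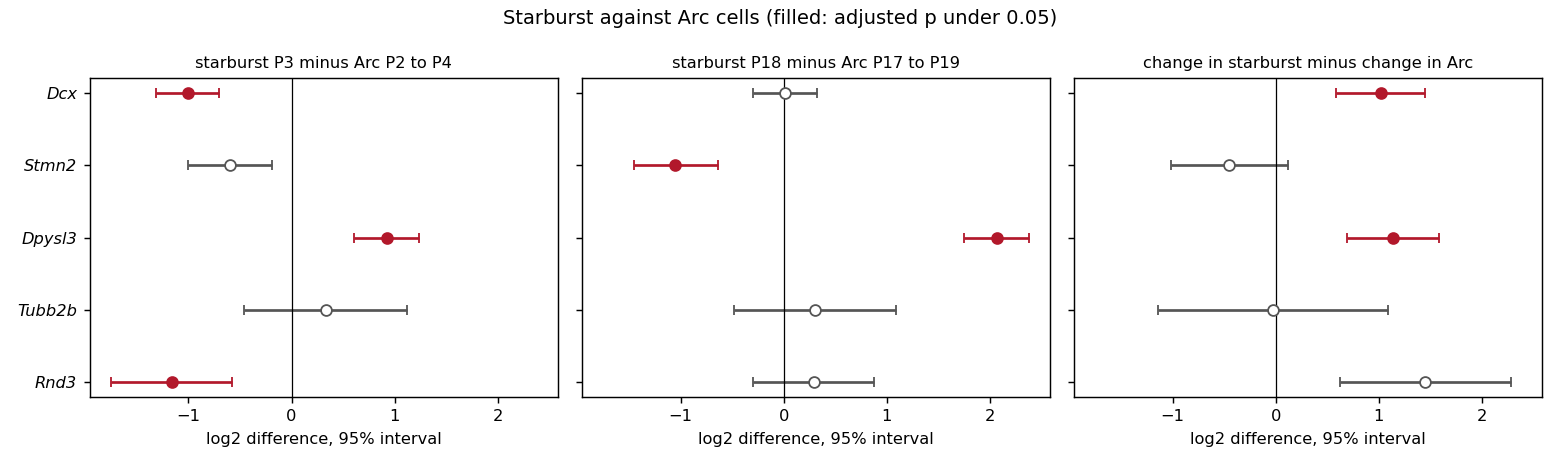
Log2 difference between starburst and Arc cells for the 5 genes, with 95% intervals from limma, at P3 (left), at P18 (middle) and for the change between these ages (right). Filled red points passed an adjusted p of 0.05. Dpysl3 is on the positive side in all 3 panels, at 0.93, 2.07 and 1.14.

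The relatives of the 5 genes differed by family. Among the other 4 collapsin response mediator proteins, 3 fell in Arc cells and the same 3 fell in starburst cells, beside 23.0% and 3.89% of all genes. Dpysl5 (CRMP5) changed by -2.23 in Arc cells (limma, adjusted p = 1.29e-10) and by -2.43 in starburst cells (limma, adjusted p = 1.89e-05). Crmp1 changed by -1.59 and -0.95 and Dpysl4 by -1.23 and -1.43, all past the test. Dpysl2 (CRMP2), the member best known for binding tubulin dimers, stayed at a high level, with 8.75 at P2 to P4 and 8.93 at P17 to P19 in Arc cells. Its fitted change of 0.25 passed narrowly there (limma, adjusted p = 0.0497) and was -0.01 after quantile normalization. It was lower in starburst than in Arc cells at P18 (-1.33; limma, adjusted p = 8.42e-05).

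None of the 6 other doublecortin family genes passed the limma test in starburst cells (2 at an unadjusted p under 0.05), and 2 rose and 2 fell in Arc cells, beside 14.7% and 23.0% of all genes. Doublecortin-like kinase 1 (Dclk1) rose by 0.57 and Dclk2 changed by -0.47 in Arc cells, both past the test but each lost under 2 alternatives. The other gene that rose was Rp1, a photoreceptor member that is also on the rod marker list and lay below background. The other gene that fell, Dcdc2a, lay below background too (3.03 at P2 to P4 and 2.85 at P17 to P19). Both kinases were lower in starburst cells. The Dclk1 difference was -1.11 at P3 (limma, adjusted p = 0.000385) and -1.71 at P18 (limma, adjusted p = 3.58e-06), and that of Dclk2 was -1.06 (limma, adjusted p = 0.00106) and -1.29 (limma, adjusted p = 0.000117). Of the 2 other stathmins measured, Stmn4 fell in Arc cells (-0.80; limma, adjusted p = 0.00312) and Stmn3 changed by 0.37 without passing (limma, adjusted p = 0.0687).

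Of the other 10 tubulins, 1 fell and 4 rose in Arc cells, beside 23.0% and 14.7% of all genes. The gene that fell was Tubb5, a broadly expressed beta-tubulin, with changes of -2.39 in Arc cells (limma, adjusted p = 1.8e-10) and -1.63 in starburst cells (limma, adjusted p = 0.00107). Tuba4a (1.53) and Tuba8 (1.18), alpha-tubulins of mature tissues, were among those that rose, Tuba4a from below background. Of 10 structural microtubule-associated proteins, 4 rose and 1 fell in Arc cells (all genes 14.7% and 23.0%), with Map7 at 1.58 (limma, adjusted p = 1.18e-07) and Map1b at 1.10 (limma, adjusted p = 0.0029), a call that P1 to P16 alone did not give (limma, adjusted p = 0.0917). In starburst cells Map7 rose too (1.14; limma, adjusted p = 0.00426), while Map2, the dendritic microtubule protein, fell by 0.94 (limma, adjusted p = 0.00425). Map2 did not pass in Arc cells (0.18), and its changes differed between the cell types (-1.0; limma, adjusted p = 0.00683).

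At microtubule ends the family members went opposite ways. Mapre1 (EB1), which tracks growing plus ends, fell by 2.35 in Arc cells (limma, adjusted p = 4.89e-10) and in starburst cells to just below background (-1.55; limma, adjusted p = 0.000339). Mapre3 (EB3), the form typical of neurons, rose by 1.38 in Arc cells (limma, adjusted p = 1.28e-07). Apc, which caps plus ends (-1.53), and the severing enzyme spastin (Spast, -1.46) fell in Arc cells. Of 18 genes of this group, 6 fell and 4 rose in Arc cells, beside 23.0% and 14.7% of all genes. In starburst cells 5 fell and 1 rose, beside 3.89% and 4.76%.

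Of the motors, more rose than fell in Arc cells as the values were deposited. Of 12 dynein and LIS1 genes 6 rose and 1 fell, and of 16 kinesins 6 rose and 1 fell, beside 14.7% and 23.0% of all genes, but after quantile normalization these counts were 4 and 2, and 3 and 3. Pafah1b1 (LIS1), like Dcx a gene of neuronal migration, rose by 0.69 (limma, adjusted p = 0.000441), the dynein chain Dync1i1 by 1.68 from below background (limma, adjusted p = 8.68e-09), the vesicle motor Kif1a by 1.09 (limma, adjusted p = 5.23e-07) and Kif26b by 2.53 (limma, adjusted p = 2.55e-11). In starburst cells none of the 12 dynein and LIS1 genes passed in limma (2 at an unadjusted p under 0.05). Dync1i1 and Kif26b lay below background in starburst cells at both ages, and their changes differed between the cell types (-1.11 and -1.94, limma, adjusted p = 0.00324 and 0.000231).

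Plxna1, which encodes a plexin subunit of semaphorin receptors, changed by -1.57 in Arc and -0.83 in starburst cells, and Plxnb1 went to below background in both (-1.22 and -0.96), all past the test. Plxna2 was far higher in starburst cells, by 3.08 at P3 (limma, adjusted p = 7.5e-07) and by 2.54 at P18 (limma, adjusted p = 2.62e-06), as was Limk2, which encodes a cofilin kinase (1.5 and 2.14).

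Growth cone membrane and actin genes fell more often than they rose in both cell types. Of 21 measured, 13 fell and 2 rose in Arc cells, beside 23.0% and 14.7% of all genes. In starburst cells 9 fell and 2 rose, beside 3.89% and 4.76%. The median changes were -0.59 and -0.50, against -0.13 and -0.06 for all genes, and other scalings gave 11 to 14 that fell in Arc cells. Fscn1 (fascin), which bundles actin in filopodia, changed by -2.55 in Arc (limma, adjusted p = 1.33e-12) and -1.70 in starburst cells (limma, adjusted p = 0.00126). Drebrin (Dbn1), which couples actin to entering microtubules, changed by -1.83 and -1.47, and Evl of the Ena/VASP family by -0.84 and -1.09, all past the test. Ablim1, an actin-binding LIM protein, rose by 0.90 in Arc and by 1.98 in starburst cells (limma, adjusted p = 3.94e-05 and 0.000279), and the difference of 1.30 passed too (limma, adjusted p = 0.00501). Gap43, the textbook growth cone protein, was lower in starburst cells, with differences of -2.39 at P3 (limma, adjusted p = 3.06e-05) and -2.03 at P18 (limma, adjusted p = 8.11e-05).

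Genes that act on the 5 proteins or beside them in neurites were mixed. Of 18 kinases and scaffolds that phosphorylate doublecortin or CRMPs or attend such kinases, 7 fell and 5 rose in Arc cells, beside 23.0% and 14.7% of all genes, but 5 fell and 6 rose under median centring, and 8 fell and 3 rose after quantile normalization. Cdk5r1 (p35), the activator of Cdk5, changed by -1.86 in Arc (limma, adjusted p = 2.47e-12) and by -1.13 in starburst cells (limma, adjusted p = 0.00398), while Cdk5 itself rose by 0.67 in Arc cells (limma, adjusted p = 0.00583). Of 18 neurite adhesion and guidance genes 6 fell and 5 rose in Arc cells, beside 23.0% and 14.7% of all genes, but 4 fell and 5 rose under median centring. N-cadherin (Cdh2) changed by -2.79 in Arc (limma, adjusted p = 6.77e-12) and by -1.40 in starburst cells (limma, adjusted p = 0.000327). Contactin 4 (Cntn4) rose by 2.60 in Arc cells (limma, adjusted p = 2.52e-08) and lay below background in starburst cells at both ages, whereas contactin 1 (Cntn1) rose in starburst cells from 3.83, below background, to 5.94 (limma, adjusted p = 5.69e-05). Among neurofilament and related genes, the heavy chain Nefh rose by 3.09 in Arc and 1.53 in starburst cells (limma, adjusted p = 2.03e-10 and 0.00343), while Ina, a filament of young neurons, changed by -0.98 and -1.26, both past the test.

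Over all 196 relatives and partners measured, 60 (30.6%) fell in Arc cells, beside 23.0% of all genes, and 37 (18.9%) fell in starburst cells, beside 3.89% of all genes. In the same tests 48 and 15 rose, beside 14.7% and 4.76% of all genes. The shares of all genes, here and for the families above, include genes near background, as no level filter was set. With only genes above the median level tested, 684 rose and 583 fell in starburst cells, against 648 and 530 among all genes. The shares among such genes were thus above 4.76% and 3.89%. In Arc cells 1778 of them rose and 1640 fell, against 2005 and 3132 of all genes. The share that rose was thus above 14.7% there. The lists were not set against genes of like level, so no excess over such genes is read from them. The median change over these 196 genes was -0.12 in Arc cells, near the -0.13 of all genes, and -0.16 in starburst cells, against -0.06. For the difference of changes, 7 were higher and 13 lower in starburst cells, beside 1.67% and 2.36% of all genes.

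**Figure D4:**
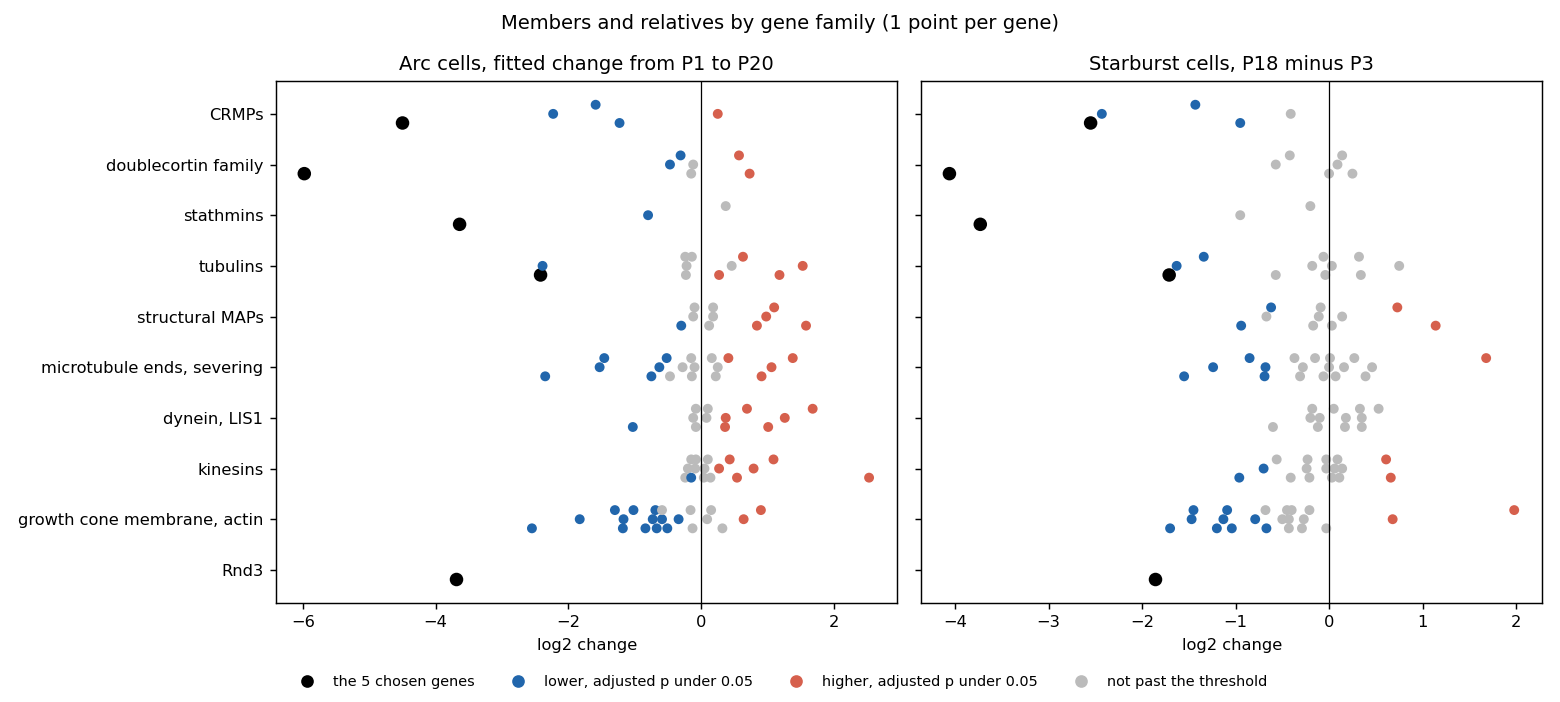
Log2 change of each measured gene by family, as the fitted change from P1 to P20 in Arc cells (left) and P18 minus P3 in starburst cells (right). Black points are the 5 chosen genes (no test), blue and red points passed an adjusted p of 0.05 in limma, and grey points did not. Rnd3 is drawn alone, the other 4 lie at the low end of their families, and the motors hold mostly red or grey points in Arc cells.

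The genes whose profiles over all 28 arrays were most like each of the 5 were found by Pearson r, as a description of arrays that share age, cell type and processing. This search picks genes that move as the 5 do in these same arrays, so their own changes are given here without a test. Most like Dcx were Arnt2, a bHLH-PAS transcription factor (r of 0.971), and Syt6, a synaptotagmin (0.944), followed by Frmd4a, Rps6ka6 and Dbn1. Arnt2 changed by -2.14 in Arc cells and -1.32 in starburst cells. Most like Stmn2 were Zfp57, a zinc finger protein of imprinted loci (0.936), Arntl, the circadian factor BMAL1 (0.932), and Mapre1 (0.931). Zfp57 changed by -2.95 in Arc and -2.89 in starburst cells, there to below background. Most like Dpysl3 were Cdk5r1 (0.951), Abr (0.948), a regulator of the GTPase Rac, and Scube3 (0.931), with the RNA-binding protein quaking (Qk) at 0.925. Like Dpysl3, Qk had a higher level in starburst cells, by 1.21 at P3 and 1.77 at P18. Most like Rnd3 were Ypel1 (0.950), the nuclear receptor gene Nr2f2 (0.949) and the proline synthesis gene Aldh18a1 (0.936), followed by neurocan (Ncan, 0.932), an extracellular matrix proteoglycan. Tubb2b had no neighbour as close, with Scube3 first at 0.813.

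Among themselves the 5 ranged from an r of 0.936 for Dcx and Stmn2 to 0.660 for Tubb2b and Rnd3 over the same 28 arrays. Dpysl3 and Stmn2 were at 0.738. In starburst cells at P18 Stmn2 lay below background and Dpysl3 well above it, while in Arc cells of P17 to P19 both lay above background.

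Markers of other retinal cells moved with age as well. The summed level of 11 measured rod markers (log2 of the summed signal) was 6.55 to 6.92 in Arc arrays of P1 to P6 and 7.44 to 8.29 from P14 to P20, with Nrl, Rom1, Rp1, Gngt1 and Pde6b below background in both. That of 10 Müller glia markers was 6.87 to 7.39 early and 7.97 to 8.57 late, with Rlbp1, Aqp4, Kcnj10, Cd44 and Hes1 below background in both. That of 10 bipolar markers was 6.72 to 7.53 and 7.86 to 8.62, with Vsx1, Trpm1, Pcp2, Isl1, Otx2 and Nyx below background throughout. In starburst cells the rod sum was 6.71 to 6.93 at P3 and 7.66 to 7.90 at P18, and the Müller sum 6.87 to 7.08 and 6.74 to 7.12. The sum of 9 vascular markers was 7.33 to 7.48 there at P3 and 6.10 to 6.50 at P18, with 8 of the 9 below background at both ages. The part of these markers in the levels of the 5 genes was not tested. Of 11 markers of retinal ganglion cells, which also use Stmn2 and neurofilaments, Slc17a6, Isl2, Opn4 and Pou4f3 lay below background in every group. In Arc cells these 4 were the only ones below it at P1 to P6, joined by Ebf3 from P7 on. Others, among them Rbpms, Pou4f1, Nefl and Thy1, lay above background in every Arc group. In starburst cells 7 of the 11 lay below it at P3 and 10 at P18. The ganglion cell sum was 6.97 to 7.63 in early and 7.44 to 7.84 in late Arc arrays. Of 11 markers of dividing progenitors, 9 lay below background in the early Arc arrays, and the sum was 6.48 to 6.98 there and 6.33 to 6.50 from P14 on.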

How the data were processed

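RNA of sorted amacrine cells was measured on a mouse exon array, 28 arrays in all. The authors deposited RMA values, made with R 2.11.1 per the submitters' processing notes, which also name mm8 as build. Their unit was read as log2 of the deposited signal. The base is not stated and was taken from RMA's convention and the highest value of 11.15, above the 11.09 that natural logs of 16-bit signals could reach. Filters, batch correction and which arrays were normalized together are not given in the sources used here. Arrays of P0 were not analysed here.

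Of 15170 transcript clusters, the 13720 with 1 symbol were kept (869 had several, 581 none). For 102 genes with more than 1 cluster the one with the highest mean was used, which left 13617 genes, and no level filter was set. Each of the 5 genes had 1 cluster. Symbols were those of the platform annotation.

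Tests used limma 3.58.1 in R 4.3.3 (lmFit, eBayes with trend, two-sided) with Benjamini-Hochberg adjustment over 13617 genes at 0.05. The fits were a linear age term over 21 Arc arrays (P43 held out), given as the fitted change over the whole span, P18 against P3 over the 6 starburst arrays, and 12 arrays (starburst P3 and P18, Arc P2 to P4 and P17 to P19) for the differences between cell types and of their changes. Neighbouring Arc days stood in for replicates, so their p-values also hold change between days. The scripts were tested on simulated data. The number of arrays limits the precision.

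The 5 genes and the gene and marker lists were chosen with earlier results of these data known. Named were the 5 genes, genes of those lists, and per gene the 5 with the most similar profile among genes above the median level. Alternatives were other scalings, a level filter, other clusters, array weights, other day windows, other sets of arrays, a replicate block and leaving out arrays. One group of genes is not reported here.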

Additional observations from a re-analysis of the deposited data

Results flagged for a closer look

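For 2 of the 5 genes the change with age differed between the cell types by the test of that difference, which 4.02% of all genes passed. Declines in both cell types entered the choice of the genes, so the test is not independent of it. From P3 to P18, the change of Dpysl3 in starburst cells minus that in Arc cells was 1.14 on the log2 scale (limma, adjusted p = 0.00554), with a smaller decline in starburst cells. The same difference for Dcx was 1.02 (limma, adjusted p = 0.0105), and it was lost after quantile normalization (limma, adjusted p = 0.173) and with wider Arc day windows (limma, adjusted p = 0.542). Both late Dcx levels lay below background, so its difference repeats the one at P3. All Arc and starburst arrays carry different batch labels, so cell type and batch cannot be told apart.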

How the results depend on the processing

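The 5 genes kept direction and side of the threshold in the tests between cell types under the scalings, level filter, array weights, day windows and left-out arrays that were run, except as follows, where the cause was not tested. Quantile normalization left the Rnd3 difference at P3 (-1.011) and the Dcx difference of changes (0.581) short of the threshold. With Arc P1 to P5 and P16 to P20 the same held for Dcx at P3 (-0.721) and its difference of changes (0.576). The Stmn2 difference at P3 passed after median centring (-0.72) and with the level filter (-0.595), where fewer genes were tested. The Rnd3 difference of changes passed under cyclic loess (1.521), the level filter (1.454) and array weights (1.436). Values near 0 turned sign without a call, namely Dcx at P18, below background in both cell types (-0.162 quantile, -0.177 median centring, -0.145 wider day windows), the Tubb2b difference of changes (0.082 under cyclic loess) and the Arc trend of Dpysl2 (-0.01, quantile). Leaving out 1 array gave -0.684 to -0.526 for Stmn2 at P3, which passed without Arc P17 or Arc P18 (limma, adjusted p = 0.0153 and 0.0424). It gave -1.401 to -0.82 for Rnd3 at P3, which missed the threshold without Arc P4 (limma, adjusted p = 0.0513), and at P18 -0.045 to 0.063 for Dcx and -0.092 to 0.738 for Tubb2b. For the difference of changes it gave -0.422 to 0.407 for Tubb2b and 1.109 to 1.691 for Rnd3, which passed without starburst P3 replicate 2 (limma, adjusted p = 0.0262). Rnd3 passed its midpoint at 12.1 days without the running mean.

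Scalings chosen after seeing the data moved a few descriptions. The starburst change was -4.36 for Dcx and -4.06 for Stmn2 after quantile normalization, the Arc change of Dpysl3 from P1 to P3 to P18 to P20 was -3.89 under cyclic loess, and P43 minus P17 to P20 for Dcx was -0.05 (quantile) and 0.14 (cyclic loess).

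Of all genes, 5137 changed with age in Arc cells, 2005 up and 3132 down. The level filter gave 3418, 1778 up and 1640 down, and P1 to P16 alone gave 1966. Other scalings moved the median change of all genes by up to 0.12 and the split to 1841 up and 2002 down (quantile), 2033 and 1767 (cyclic loess) and 2462 and 1389 (median centring). Starburst P18 against P3 gave 1178 genes, 2251 when the spread was taken from all 28 arrays, and 1060 with a replicate block. With 1 starburst array left out it gave 810 to 908. Of these, 333 fell without P18 replicate 1, against 530 with all 6 arrays. No pairing by replicate number was seen, as same-numbered arrays correlated at 0.046, 0.018 and -0.044 in their deviations. Differently numbered arrays gave -0.069 to 0.056. With 3 arrays per age this does not show that the samples were unpaired. Starburst against Arc gave 1469 genes at P3, 2470 with Arc P1 to P5, and 931 to 1507 with 1 array left out (931 without Arc P4). At P18 it gave 2820, and 1586 to 2873 with 1 array left out, of which 1586 was without Arc P19, 1813 without Arc P18 and 1852 without starburst replicate 1. Signals near background limit what can be said of low levels.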
